A study of Homo sapiens with 16 samples.

Results

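The clustered histone genes are the genes with a protein-coding (NM) transcript on chromosome 6 or chromosome 1 whose symbol begins with HIST1H or HIST2H in the annotation deposited with the study. They numbered 66 of 19343 protein-coding genes, 55 on chromosome 6 and 11 on chromosome 1. By histone type they were 6 genes for the linker histone H1, 16 for H2A, 17 for H2B, 13 for H3 and 14 for H4. Members were chosen by symbol and position alone, so no measured value entered the choice.

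These genes supply the histones that package newly replicated DNA. They are transcribed mainly in S phase, have no introns and make short messenger RNAs that end in a stem-loop instead of a poly(A) tail. Many H2A and H2B genes stand head to head and share a short promoter with CCAAT boxes and an octamer. The nuclear protein NPAT coactivates the clusters as a whole, and HINFP acts on H4 promoters. Red cell precursors divide repeatedly and then stop, and these genes are switched off with division.

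Binding of the zinc-finger repressors BCL11A and ZBTB7A, known for silencing the fetal γ-globin genes, was located by chromatin immunoprecipitation with sequencing (ChIP-seq) in 16 libraries, 8 ChIP and 8 control. BCL11A was measured in an immortalised human erythroid progenitor line, HUDEP-2, carrying an inducible BCL11A-ER-V5 fusion (2 ChIP and 2 control libraries). The fusion had been switched on with 4-hydroxytamoxifen at 1e-07 M for 24 h and was pulled down through its V5 tag, so the list describes a tagged, induced protein. ZBTB7A was measured with antibodies to the protein itself in K562, a line from an erythroleukaemia, with 4 ChIP and 4 control libraries. It was also measured in HUDEP-2 cells without HBG2, the Gγ-globin gene, whose remaining γ-globin promoter was 195C>G or wild type (WT), with 1 ChIP library and 1 control for each. The controls are titled input, but their antibody label is IgG. HUDEP-2 and K562 are dividing cell lines, and the files hold no expression or cell-cycle measurement.

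The authors' peak lists held 12911 regions for BCL11A, 17331 for ZBTB7A in K562, 18784 for ZBTB7A in 195C>G and 36435 for ZBTB7A in WT, with median widths of 370, 349, 600 and 644 bp in that order. The BCL11A and K562 lists pool their replicates and the 195C>G and WT lists come from 1 library each, so there is no error between replicates, no test was made, and the depth is unknown. A region's rank is its place in its own list, 1 being the top, after the authors' score (BCL11A), their signal (195C>G and WT) or the order of the file (K562). The sources used here do not say whether the K562 file is sorted by strength, so a K562 rank is a place in the file and may not reflect strength. Scores, signals and ranks are read within a list. A promoter region is one whose position, the summit in 195C>G and WT and the midpoint in BCL11A and K562, lay within 1 kb of a start site, and a gene takes the rank of its best-ranked such region. Regions that overlap within a list were kept apart, so regions are not separate sites, and 1 region can count for neighbouring genes.

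BCL11A regions were found at 27 of the 66 histone genes, or 40.9% (exact Clopper-Pearson 95% interval 29.0 to 53.7%), against a background of 24.6% of all protein-coding genes tested. ZBTB7A regions in K562 were found at 9 genes, or 13.6% (6.43 to 24.3%), against a background of 33.3%. In 195C>G they were found at 21 genes, or 31.8% (20.9 to 44.4%), against 29.5%, and in WT at 44 genes, or 66.7% (54.0 to 77.8%), against 45.4%. The K562 share lay below its background, the BCL11A and WT shares lay above theirs, and the 195C>G interval included its background. The intervals cover counting error only, and genes that share a region are not independent. With a 500 bp window the interval included the background for BCL11A (30.3%, 19.6 to 42.9%, against 21.3%) and for WT (45.5%, 33.1 to 58.2%, against 39.6%). The distinct regions behind these genes numbered 27 for BCL11A, 11 for K562, 22 for 195C>G and 51 for WT.

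Only 15 of the 66 genes (22.7%) had no promoter region in any of the 4 lists, against 44.6% of all genes, and 51 (77.3%) had at least 1, against 55.4%. There were 16 genes in 1 list (24.2%, against 14.2% of all genes), 23 in 2 lists (34.8%, against 15.1%), 9 in 3 lists (13.6%, against 16.0%) and 3 in all 4 (4.55%, against 10.2%). The 3 genes in every list were HIST1H1D, a linker histone gene, HIST1H2AM, an H2A gene, and HIST1H2BJ, an H2B gene. The commonest patterns were WT alone (11 genes, 16.7%, against 7.11% of all genes), BCL11A with WT (10 genes, 15.2%, against 3.03%) and 195C>G with WT (9 genes, 13.6%, against 4.85%).

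The regions at histone genes lay far down the ZBTB7A lists. The median best rank of members was 48.5% of the way down the BCL11A list, against 43.5% for all genes with a promoter region. It was 89.6% down the K562 list, against 38.0%, then 63.2% down the 195C>G list, against 39.8%, and 52.5% down the WT list, against 28.4%. In each of the 4 lists, 1 member fell in the top 10% of regions: HIST1H3I for BCL11A and HIST1H2AM for the other 3. Counting the top 50% of each list alone left 14 members for BCL11A (21.2%, against 14.1% of all genes) and 2 for K562 (3.03%, against 20.8%). It left 4 for 195C>G (6.06%, against 18.1%) and 21 for WT (31.8%, against 33.1%). The WT share above background therefore came from the weaker 50% of that list, and the 195C>G share was below background in the top 50% of that list.

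**Figure D1:**
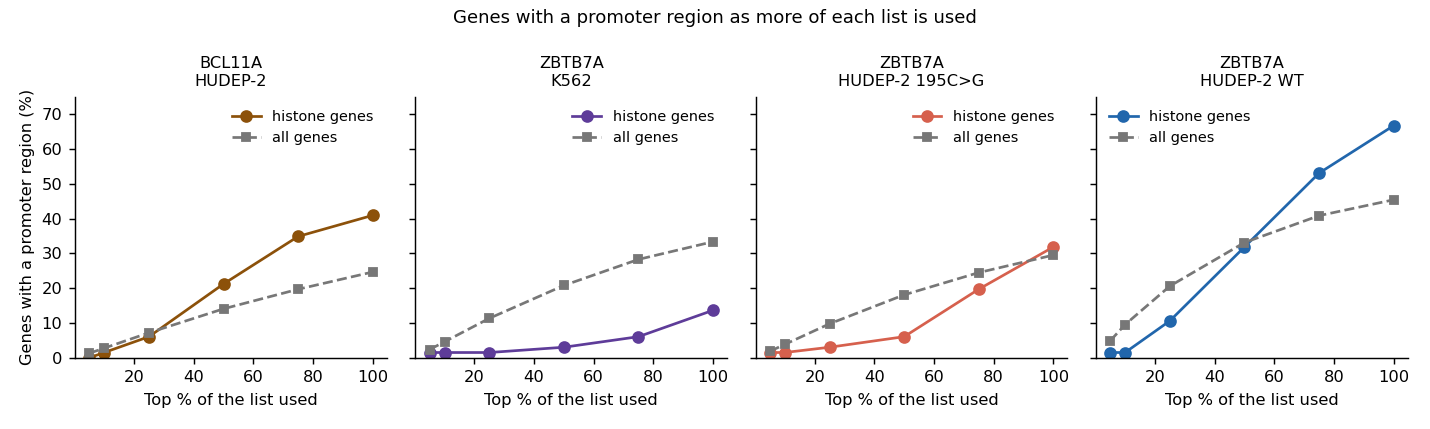
Share of genes (%, vertical axis) with a promoter region as the top 5 to 100% of each list is used (horizontal axis), for the histone genes (coloured circles) and all protein-coding genes (grey squares). In WT the histone curve was below the grey one at 25% of the list (10.6% against 20.6%) and above it at 100% (66.7% against 45.4%).

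By position, the chromosome 6 genes fell into 4 blocks separated by more than 250 kb (authors' hg38 coordinates, start to start). The first holds the H2A and H2B pair HIST1H2AA and HIST1H2BA at 25726562 to 25726909, and it was in none of the 4 lists. The second, with 32 genes at 26017812 to 26285499, had a region at 12 genes for BCL11A, 5 for K562, 8 for 195C>G and 25 for WT. The third is a compact block of 5 genes at 27132796 to 27147082 (HIST1H2BJ, HIST1H2AG, HIST1H4I, HIST1H2BK and HIST1H2AH), where 5 had a BCL11A region, 3 a K562 region, 3 a 195C>G region and 4 a WT region. The fourth, with 16 genes at 27807931 to 27893425, had a region at 7 genes for BCL11A, 1 for K562, 9 for 195C>G and 14 for WT. The shares of all genes were 24.6% for BCL11A, 33.3% for K562, 29.5% for 195C>G and 45.4% for WT. Counted per length, with 1 kb added at each side, the third block carried 36.8 BCL11A regions per 100 kb, against 5.56 in the second and 9.14 in the fourth. For WT it carried 30.7 regions per 100 kb, against 17.1 in the second and 26.3 in the fourth. For K562 it carried 30.7, against 3.34 and 4.57, and for 195C>G 30.7, against 4.08 and 14.9. Its 5 genes span 14.3 kb, against 32 genes in 267.7 kb for the second and 16 in 85.5 kb for the fourth. The spacing of genes was not separated from these densities.

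The chromosome 1 cluster, at 149812373 to 149887916, had a region at 3 of its 11 genes in BCL11A, 0 in K562, 1 in 195C>G and 1 in WT. The BCL11A share was 27.3% (exact interval 6.02 to 61.0%), against 24.6% of all genes, so it was not low. The K562 share was 0% (0 to 28.5%), against 33.3%. The 195C>G and WT shares were 9.09% each (0.23 to 41.3%), against 29.5% and 45.4%. The interval lay below the share of all genes for K562 and WT and included it for BCL11A and 195C>G. On chromosome 6 the numbers were 24, 9, 20 and 43 of 55 in the same order of lists (43.6, 16.4, 36.4 and 78.2%). The BCL11A regions of chromosome 1 lay in H2B transcripts. The region of rank 3243 (score 52.3, 149886233 to 149886356) was 388 bp into HIST2H2BE and counted also for its head-to-head partner HIST2H2AC, and that of rank 5209 (score 35.3, 149811841 to 149812210) was 348 bp into HIST2H2BF. HIST2H2AB was the chromosome 1 gene listed for ZBTB7A, 599 bp upstream at rank 11291 in 195C>G (signal 35.9) and 569 bp upstream at rank 22873 in WT (signal 21.6).

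The other 7 chromosome 1 genes, HIST2H2AA3, HIST2H2AA4, HIST2H3A, HIST2H3C, HIST2H3D, HIST2H4A and HIST2H4B, were in no list. Of these 6 form 3 pairs of copies: HIST2H2AA3 with HIST2H2AA4, HIST2H3A with HIST2H3C, and HIST2H4A with HIST2H4B. The annotation places each of them at both copies. In the RefSeq promoter table (GRCh38.p14, from 250 bases before the start to 50 after) the pairs were identical at 299 of 299, 296 of 296 and 300 of 300 aligned positions. Reads from identical copies cannot be placed at 1 of them, the sources used here do not say how such reads were handled, and their part in the absence of regions was not tested.

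**Figure D2:**
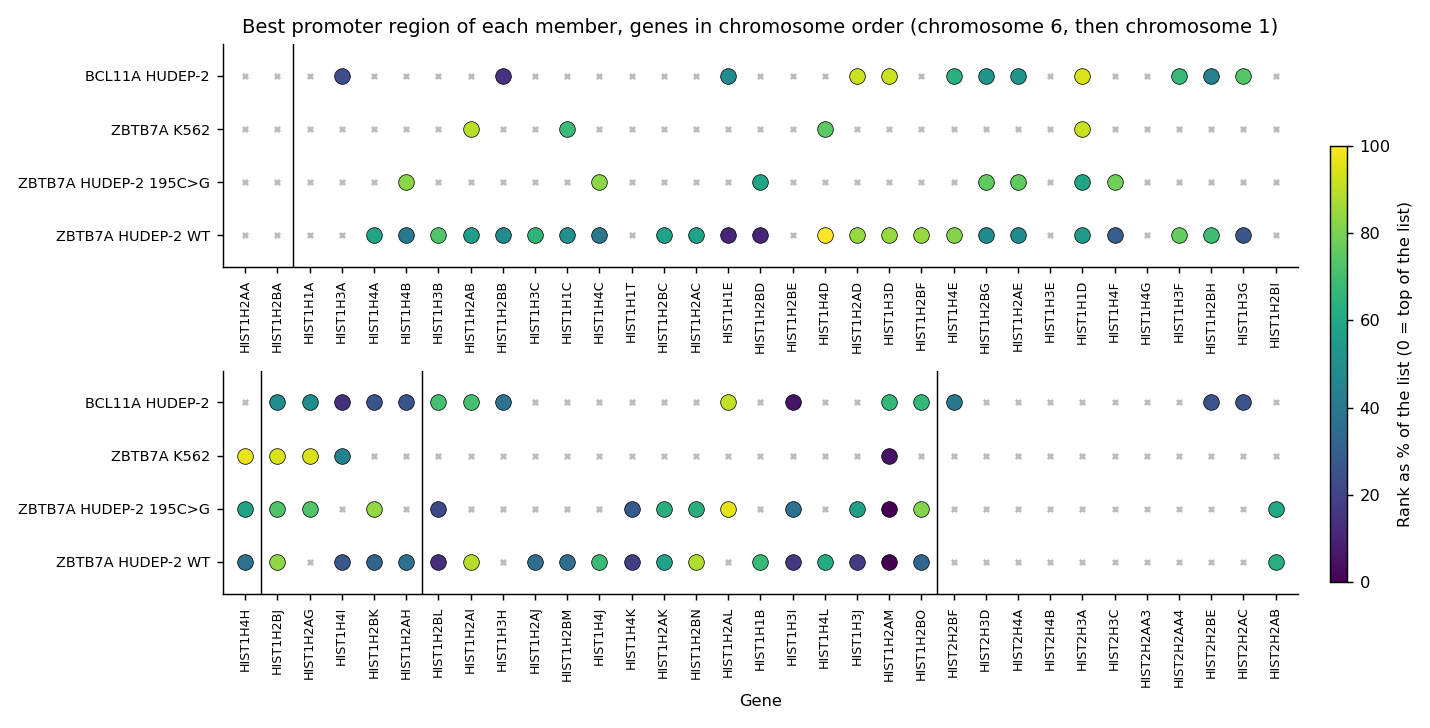
Best promoter region of each of the 66 histone genes (horizontal axis, in chromosome order, lines between blocks) in each of the 4 lists (rows), coloured by rank as a percentage of the list with dark for the top, and crosses for no region. HIST1H2AM was dark in the 3 ZBTB7A rows, the K562 row had 9 coloured points, and the chromosome 1 genes at the right had mostly crosses.

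Linker histone H1 binds the DNA that enters and leaves a nucleosome. Of the 6 H1 genes, 2 had a BCL11A region, 2 a K562 region, 1 a 195C>G region and 4 a WT region. HIST1H1E had the best ranks of the type in both BCL11A and WT. Its BCL11A region (rank 6127, score 30.8) lay 172 bp into the gene, and its WT region (rank 3892, signal 61.0) lay between it and HIST1H2BD and counted for both. HIST1H1C led the type in K562, with a region of rank 11819 that lay 124 bp past its start. HIST1H1D was in all 4 lists at middling to low ranks: 12156 of 12911 for BCL11A, 15917 of 17331 for K562, 11062 of 18784 for 195C>G and 19914 of 36435 for WT. At HIST1H1D the BCL11A position (912 bp past the start) and the 195C>G position (971 bp) lay beyond the transcript, whereas the K562 and WT positions lay at 163 and 135 bp. HIST1H1A and HIST1H1T, the testis linker histone gene, were in no list.

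Among the 16 H2A genes, 8 had a BCL11A region (50%, against 24.6% of all genes) and 3 a K562 region (18.8%, against 33.3%). A 195C>G region was found at 6 (37.5%, against 29.5%) and a WT region at 10 (62.5%, against 45.4%). HIST1H2AM had by far the best ZBTB7A ranks of any histone gene, with rank 844 in K562, 53 in 195C>G (signal 218) and 80 in WT (signal 200). The authors' −log10 false discovery rate there was 4.07 in 195C>G and 4.34 in WT. The next member after HIST1H2AM was at rank 7734 in K562, 4097 in 195C>G and 3892 in WT. Its regions ran over 27892163 to 27892574 in K562, 27892139 to 27892636 in 195C>G and 27892105 to 27892671 in WT. The position was base 27892367 in both 195C>G and WT and base 27892368 in K562. That point is not at the promoter: it lies 332 bp past the annotated end of HIST1H2AM in 195C>G and WT and 331 bp past it in K562, at 818 and 817 bp from the start. No non-coding gene or pseudogene of the RefSeq table lay under these regions, and its protein-coding genes were not searched there. The BCL11A region counted for HIST1H2AM (rank 8587) lay on the other side of the start, within the neighbouring HIST1H2BO, and did not overlap them.

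HIST2H2AC shared the best BCL11A rank among H2A genes, 3243. In K562 HIST1H2AB, at rank 15521, followed HIST1H2AM with a region 753 bp upstream. HIST1H2AG and HIST1H2AL were listed in 195C>G and not in WT. HIST1H2AG had a 195C>G region of rank 13625 (signal 32.0) at 723 bp past its start, and the nearest WT position was 1159 bp upstream, just outside the window. HIST1H2AL had a region of rank 18016 (signal 26.5) at 935 bp, near the bottom of the 195C>G list. HIST1H2AA, a testis H2A gene, was in no list.

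Among the 17 H2B genes, 9 had a BCL11A region (52.9%, against 24.6% of all genes) and 1 a K562 region (5.88%, against 33.3%). A 195C>G region was found at 7 (41.2%, against 29.5%) and a WT region at 12 (70.6%, against 45.4%). HIST1H2BB had the best BCL11A rank of the type, 1895 (score 77.0), at 603 bp upstream, where the region overlapped the H2A pseudogene H2AC5P of the RefSeq table. HIST1H2BL was second among all members in 195C>G and led the type there, with rank 4097 (signal 61.1) at 997 bp past its start, barely inside the window, and was at rank 4771 in WT (signal 55.5) at 965 bp. Both HIST1H2BL regions overlapped the H4 pseudogene H4C10P. HIST1H2BD, with rank 3892 (signal 61.0) from the region it shares with HIST1H1E, had the best WT rank of the type. HIST1H2BJ was in all 4 lists, at rank 6258 (score 30.2) in BCL11A, 16360 in K562, 13625 in 195C>G (signal 32.0) and 30231 in WT (signal 17.4). The first 3 of these ranks came from regions it shared with HIST1H2AG, and its partner had no WT region.

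Promoters of the H2A and H2B types carried the letters known for them. In the RefSeq promoter table, which held 61 of the 66 members, CCAAT on either strand was present in 15 of 15 H2A and 17 of 17 H2B promoters, against 34.5% of 22134 other protein-coding promoters. The octamer ATTTGCAT was in 11 of 15 H2A and 14 of 17 H2B promoters, against 1.54% of the others. It was in 1 of 11 H3 promoters and in no H1 or H4 promoter. It was present in 15 of 25 members with a BCL11A region and 11 of 36 without one. For WT regions it was present in 17 of 39 members with a region and 9 of 22 without. These splits were not separated from histone type. Promoter windows of head-to-head genes can overlap, so the same octamer can count for both genes. HIST1H2BJ and HIST1H2AM are shown since they were in all 4 lists. The bases are the 250 before the RefSeq start on the minus strand, at chr6:27132796-27133045 and chr6:27893186-27893435, with CCAAT, ATTTGCAT and TATAAA on either strand in capitals (ATTGG and TTTATA are CCAAT and TATAAA read on the other strand, and TTTATAAA is a TATAAA on each strand, overlapping):
HIST1H2BJ: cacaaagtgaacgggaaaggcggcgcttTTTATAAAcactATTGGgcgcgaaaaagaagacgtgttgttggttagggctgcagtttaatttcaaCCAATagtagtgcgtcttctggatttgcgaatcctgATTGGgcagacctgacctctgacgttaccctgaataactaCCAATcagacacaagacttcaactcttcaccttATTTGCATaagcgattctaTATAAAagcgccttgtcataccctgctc
HIST1H2AM: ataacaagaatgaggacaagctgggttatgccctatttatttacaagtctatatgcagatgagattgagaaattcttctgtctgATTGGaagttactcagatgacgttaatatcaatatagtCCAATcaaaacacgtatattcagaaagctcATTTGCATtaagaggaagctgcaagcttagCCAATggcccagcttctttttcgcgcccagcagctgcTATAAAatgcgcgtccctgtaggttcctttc

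The promoter of HIST1H2BJ has 4 CCAAT boxes, all before its octamer, and that of HIST1H2AM has 3, of which the last lies between the octamer and the TATA box nearest the start. The strong ZBTB7A site of HIST1H2AM lies outside the printed stretch, past the other end of the gene.

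The head-to-head arrangement gave 12 pairs of members whose starts were at most 500 bp apart, and 1 start, that of HIST1H2BF, is counted with both HIST1H2AD and HIST1H3D, which share a start in the annotation. Both genes of a pair were listed for 6 pairs in BCL11A, 1 in K562, 4 in 195C>G and 9 in WT. A region within 1 kb of both starts was found at these same numbers of pairs. The paired starts lay only 224 to 347 bp apart, and other head-to-head genes were not counted for comparison. The position fell between the paired starts at 0 pairs in BCL11A, 0 in K562, 0 in 195C>G and 1 in WT (HIST1H2BL with HIST1H2AI). A region touched the stretch between the starts at 1, 1, 1 and 7 pairs in the same order of lists.

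Among the 13 H3 genes, 6 had a BCL11A region (46.2%, against 24.6% of all genes) and 0 a K562 region (0%, against 33.3%). A 195C>G region was found at 2 (15.4%, against 29.5%) and a WT region at 7 (53.8%, against 45.4%). The interval for the K562 count of 0 of 13 genes reached 24.7%, below the background of 33.3%. This was not particular to H3, since the interval for 1 of 17 H2B genes in K562 reached 28.7%. HIST1H3I had the strongest BCL11A region of any histone gene, rank 657 with a score of 154, at 27871319 to 27871651. Its midpoint was 836 bp from the start and beyond the transcript end, and regions of 195C>G and WT overlapped it. A weaker BCL11A region of the same gene (rank 3164, score 53.3) lay 88 bp past the start. In 195C>G the best region of HIST1H3I had rank 7042 (signal 46.9, at 514 bp), and in WT it had rank 5740 (signal 50.8, at 871 bp). HIST1H3A was the next H3 gene in BCL11A, with rank 2955 (score 56.1) at 104 bp past its start. HIST1H3J had a 195C>G region of rank 10694 (signal 37.1, at 786 bp) and a WT region of rank 6280 (signal 48.6, at 708 bp).

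Among the 14 H4 genes, 2 had a BCL11A region (14.3%, against 24.6% of all genes) and 3 a K562 region (21.4%, against 33.3%). A 195C>G region was found at 5 (35.7%, against 29.5%) and a WT region at 11 (78.6%, against 45.4%). These are small numbers, and the exact 95% interval of the BCL11A share ran from 1.78 to 42.8%. HIST1H4I led the type in BCL11A and K562. Its BCL11A region of rank 1773 (score 80.8, 27139193 to 27139410) was centred 8 bp upstream of the start, and its K562 region of rank 7734 (27139158 to 27139345) 58 bp upstream. In WT the best HIST1H4I region (rank 9870, signal 37.8) lay 471 bp past the start, and it had none in 195C>G. HIST1H4K led the type in 195C>G, with rank 5249 (signal 54.2) at 775 bp, and in WT, with rank 6597 (signal 47.4) at 556 bp, in both beyond its transcript end. The other 2 K562 regions of H4 genes by best rank were also at the start, at 49 bp upstream of HIST1H4D (rank 12942) and 26 bp upstream of HIST1H4H (rank 16772). HIST1H4F had regions at its start in 195C>G, 33 bp upstream (rank 14714, signal 30.5), and in WT, 105 bp upstream (rank 10664, signal 36.1).

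These promoters and that of HIST1H4E, whose BCL11A region of rank 8209 (score 23.3) was centred 6 bp past the start, are the H4 promoters with a BCL11A, K562 or 195C>G region centred within 100 bp of the start. In WT such regions were also found at HIST1H4A, HIST1H4L and HIST1H4J, which are not shown. Distances count from the deposited start, which lies 27 to 36 bases past the RefSeq start at the genes shown. The BCL11A centres at HIST1H4I and HIST1H4E therefore lie past the printed bases, as do the K562 centre at HIST1H4H and the 195C>G summit at HIST1H4F. The K562 centres at 58 bp upstream of HIST1H4I and 49 bp upstream of HIST1H4D lie within them. The bases are the 250 before the RefSeq start, at chr6:27139032-27139281 (plus strand), chr6:26204360-26204609 (plus), chr6:26189113-26189362 (minus), chr6:26285535-26285784 (minus) and chr6:26240143-26240392 (plus), with matches on either strand in capitals, namely the GGTCCG element, any CCAAT box, the TATA box letters TATAAA and the letters GACCC:
HIST1H4I: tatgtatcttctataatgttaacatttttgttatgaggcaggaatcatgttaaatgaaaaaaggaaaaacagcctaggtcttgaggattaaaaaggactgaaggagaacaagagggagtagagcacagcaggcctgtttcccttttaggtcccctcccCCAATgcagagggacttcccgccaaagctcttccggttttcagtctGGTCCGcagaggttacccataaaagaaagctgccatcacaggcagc
HIST1H4E: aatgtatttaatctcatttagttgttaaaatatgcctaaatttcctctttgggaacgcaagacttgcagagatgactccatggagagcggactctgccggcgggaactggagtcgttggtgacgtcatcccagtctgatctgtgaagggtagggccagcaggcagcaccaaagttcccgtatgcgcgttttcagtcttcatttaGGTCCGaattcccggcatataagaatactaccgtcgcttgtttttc
HIST1H4D: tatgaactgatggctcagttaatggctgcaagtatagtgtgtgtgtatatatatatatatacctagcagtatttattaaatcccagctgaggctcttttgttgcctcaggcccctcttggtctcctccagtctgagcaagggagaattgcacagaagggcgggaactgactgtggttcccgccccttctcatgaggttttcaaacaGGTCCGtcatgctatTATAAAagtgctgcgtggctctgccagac
HIST1H4H: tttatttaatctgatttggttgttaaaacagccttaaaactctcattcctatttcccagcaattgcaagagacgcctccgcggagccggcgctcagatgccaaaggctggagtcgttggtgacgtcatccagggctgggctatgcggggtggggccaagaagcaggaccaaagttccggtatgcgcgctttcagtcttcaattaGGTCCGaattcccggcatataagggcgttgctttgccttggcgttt
HIST1H4F: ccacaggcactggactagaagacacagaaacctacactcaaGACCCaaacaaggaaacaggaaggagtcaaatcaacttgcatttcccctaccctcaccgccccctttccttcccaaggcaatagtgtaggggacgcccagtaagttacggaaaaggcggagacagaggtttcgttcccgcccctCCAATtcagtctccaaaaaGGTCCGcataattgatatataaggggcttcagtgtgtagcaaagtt

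GGTCCG is part of an element known from H4 promoters and was searched for after these sequences had been read. It stood between 44 and 47 bases before the RefSeq start in 11 of the 12 H4 genes in the table, all but HIST1H4G. Over all members it was present in 14 of 61 promoters (23.0%), against 14.0% of other protein-coding promoters. CCAAT was in 3 of 12 H4 promoters and in every promoter of the other 4 types. TGACCA, the letters known for BCL11A binding, was in 10 of 61 member promoters (16.4%), against 9.30% of the others, and in 5 of 25 members with a BCL11A region against 5 of 36 without. In HIST1H4I it begins 14 bases past the RefSeq start, after the printed stretch, and in 2 members it overlapped a CCAAT box as TGACCAAT. GACCC, letters known for ZBTB7A, was in 12 of 61 member promoters (19.7%), against 51.6% of the others. TATAAA was in 41 of 61 (67.2%), against 9.30%. These are matches of letters in a 300-base window and do not mark binding.

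In BCL11A, 195C>G and WT the regions at histone genes sat further downstream of the nearest start than those at other genes. At a head-to-head pair, a region outside the stretch between the starts counts as downstream of the nearer gene. The part of this arrangement in the positions was not tested. The median position was 298 bp past the nearest start for BCL11A, against 57 bp for other promoter regions, and 78 bp for K562, against 17 bp. It was 717.5 bp for 195C>G, against 50 bp, and 391 bp for WT, against 64 bp. Of the 22 regions in 195C>G, 2 lay within 250 bp of a start (9.09%, against 47.3% of other promoter regions), and in WT 15 of 51 did (29.4%, against 49.0%). For BCL11A the share was 40.7%, against 56.3%, and for K562 63.6%, against 57.2%. In none of the 4 lists was the start of a protein-coding gene outside the family nearer to one of these regions. Starts of non-coding genes, such as tRNA genes, were not compared.

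Histone genes are short, with a median transcript of 466.5 bp, so a region inside the 1 kb window can lie past the gene's end. In BCL11A 21 of 27 regions lay inside a transcript, 4 past its end and 2 upstream. In K562 the numbers were 5, 1 and 5 of 11. In 195C>G 2 of 22 lay inside, 16 past the end and 4 upstream, and in WT 17 of 51 lay inside, 24 past the end and 10 upstream. All 3 H3 regions and all 5 H2B regions that lay downstream of a start in 195C>G were past the transcript end. BCL11A regions lay mostly over the short transcripts and 195C>G regions mostly beyond them. Coding sequences of members of a type are much alike, so reads inside transcripts may belong to another copy, and their part in these positions was not tested.

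**Figure D3:**
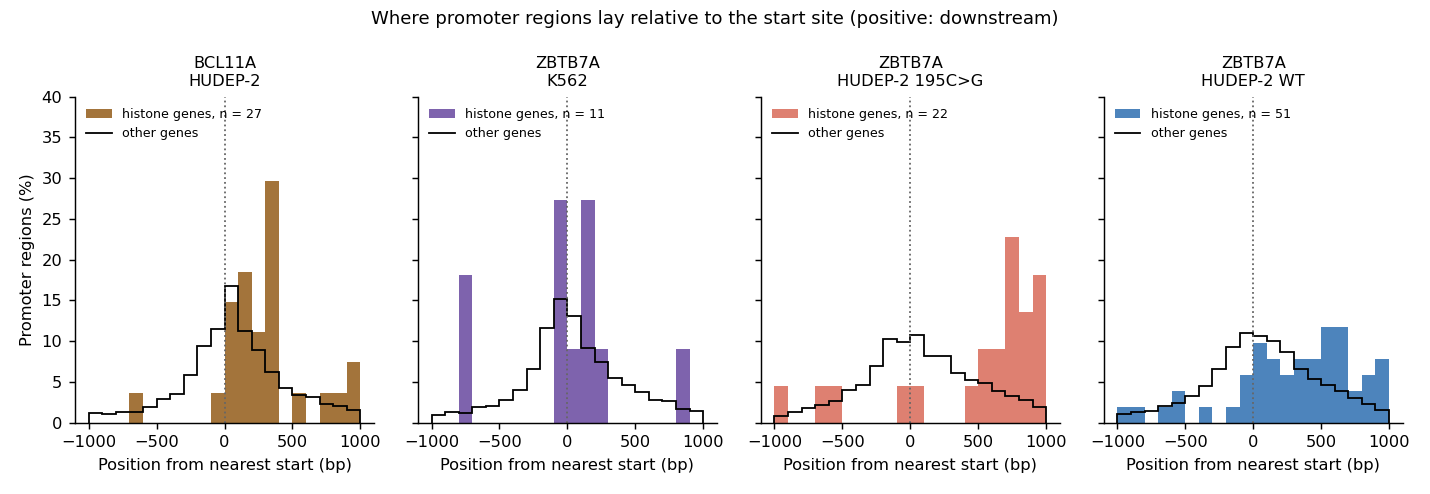
Position of promoter regions from the nearest start (bp, horizontal axis, positive is downstream) as a share of regions in 100-bp bins (%, vertical axis), with coloured bars for regions at histone genes and a black line for regions at other protein-coding genes. The 195C>G bars gather beyond 500 bp (median 717.5 bp) and the BCL11A bars between 0 and 400 bp (median 298 bp), while the black lines peak near 0.

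The 195C>G and WT lists differ in length, and each comes from a single library. Of the 51 WT regions at histone genes, 22 (43.1%, exact 95% interval 29.3 to 57.8%) were overlapped by a 195C>G region. WT promoter regions in the same deciles of WT signal rank gave an expected 26.5 (52.0%), which lies inside the interval, and all WT promoter regions gave 62.6%. The 6 strongest WT regions, at HIST1H2AM, HIST1H2BD, HIST1H2BL, HIST1H3I, HIST1H3J and HIST1H4K, were all overlapped. The next in rank, at HIST1H3G (rank 9682) and HIST1H4I (rank 9870), were not. Conversely 20 of the 22 regions in 195C>G were overlapped in WT, against 20.6 expected from their rank. A difference between the 195C>G and WT cells at these genes was not detectable apart from the lengths and strengths of the lists.

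BCL11A regions at histone genes were overlapped by ZBTB7A regions less often than BCL11A promoter regions of the same rank. Of the 27 BCL11A regions, 3 were overlapped by a K562 region (11.1%, against 41.8% expected from BCL11A rank), 5 by a 195C>G region (18.5%, against 41.3%) and 11 by a WT region (40.7%, against 63.8%). Each of these 3 expected shares lay above the exact 95% interval of its count, whose upper ends were 29.2, 38.1 and 61.2%. When a reciprocal overlap of 50% was required, or the top 50% of each list alone was used, the share over all BCL11A promoter regions fell inside the interval for all 3 lists. As shares of the other lists, BCL11A regions overlapped 4 of 11 K562 regions, against 3.16 expected, 6 of 22 in 195C>G, against 7.35, and 14 of 51 in WT, against 15.4. By gene, 20 of the 27 genes with a BCL11A region also had a WT region (74.1%, against 77.4% of all genes with a BCL11A region), and 5 also had a K562 region (18.5%, against 60.6%).

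K562 and HUDEP-2 differed in the ZBTB7A lists. Of the 44 genes with a WT region, 8 had a K562 region (18.2%, against 58.8% of all genes with a WT region), and 8 of the 9 genes with a K562 region had a WT region (88.9%, against 80.1%). Of the 51 WT regions, 10 were overlapped in K562, against 23.1 expected from WT rank. The cell line, the pooling of replicates and the peak calling all differ between these lists and cannot be told apart.

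Non-histone genes on the same stretch of chromosome 6 gave a reference within the locus. Of the 19 protein-coding genes between the first and last member, 5 had a BCL11A region, 6 a K562 region, 8 a 195C>G region and 10 a WT region. ABT1, a basal transcription activator gene, was at rank 301 in 195C>G, 194 in WT, 608 in K562 and 4506 in BCL11A. The zinc-finger gene ZNF184 was at rank 85 in BCL11A, and ZNF322 at rank 254. In BCL11A, K562, 195C>G and WT the shares of these 19 genes were 26.3, 31.6, 42.1 and 52.6%. The 55 histone genes there stood at 43.6, 16.4, 36.4 and 78.2%, and all genes at 24.6, 33.3, 29.5 and 45.4%. The stretch also holds 98 tRNA genes of the RefSeq table, of which 1, TRX-CAT1-2 upstream of HIST1H4H, lay under a histone gene's promoter region.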

How the data were processed

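ChIP-seq regions for BCL11A and ZBTB7A were taken from 4 lists as the authors deposited them. Reads were handled with Trimmomatic 0.3.2, Bowtie2 2.2.9, Bowtie, Picard and bedtools on GRCh38/hg38, per the submitters' processing notes. The deposited BCL11A list gives the authors' score per region. The deposited 195C>G and WT lists give the authors' signal and the −log10 of the false discovery rate per region, with a summit. The deposited K562 list gives no value, so its order served as rank, a choice made after seeing the data, and may not reflect strength. The read depth per sample is not given in the files.

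With Python 3.11.15, pandas 2.3.3, numpy 2.4.6 and scipy 1.17.1, identical regions were counted once and each region was assigned to every NM start within 1 kb. The assignment was tested on simulated data. The background is 18069 protein-coding genes, since chromosome 11 was left out: the 195C>G and WT lists use a modified chromosome 11. Regions overlapped when they shared at least 1 bp. Expected overlaps are means of the same rank decile (10 bins) over all promoter regions of a list. Intervals are exact Clopper-Pearson 95% intervals and cover counting error only. No test was made.

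Named in full were the 5 members of best rank in each list, the strongest of each type in each list, those in all 4 lists, the chromosome 1 genes and those in 195C>G but not WT. HIST1H4H, HIST1H4F, HIST1H4E, HIST1H4A, HIST1H4L and HIST1H4J were added after their values were seen. The members, the related gene lists and the letters searched were chosen with earlier results of these data known. Sequences are from RefSeq (GRCh38.p14), whose starts can differ from those of the deposited annotation, mostly slightly. The largest shift was at HIST1H3E, with a RefSeq start at 26224178 and a deposited start at 26225155. Its nearest WT position (rank 34718) lay 1365 bp upstream of the deposited start and within 1 kb of the RefSeq start. All counts use the deposited starts, and with these HIST1H3E was in no list.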

Additional observations from a re-analysis of the deposited data

How the results depend on the processing

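No paired analysis was possible because the lists are pooled over replicates or come from 1 library, and for the same reason no replicate could be left out. Of 34 alternative counts, 16 stayed within 1.5 times the reported count and 18 did not. With a 500 bp window 195C>G had 4 members (6.06%, against 24.0% of all genes). With a 5 kb window there were 44 for BCL11A (66.7%, against 29.5%), 19 for K562 (28.8%, against 38.9%) and 32 for 195C>G (48.5%, against 34.5%). With the top 50% of each list there were 14, 2, 4 and 21 members in BCL11A, K562, 195C>G and WT. Where the region had to cover the start itself there were 9 for BCL11A (13.6%, against 12.3%), 5 for K562 (7.58%, against 18.3%), 2 for 195C>G (3.03%, against 17.3%) and 19 for WT (28.8%, against 31.8%). BCL11A counts were above and K562 counts below the share of all genes in each alternative run, but that share lay inside the exact 95% interval for BCL11A at 500 bp, in the top 50% and with the start covered, for K562 at 5 kb, and for WT at 500 bp. WT turned slightly below it with the top 50% and with the start covered, and the share of all genes lay inside the interval in both. The 195C>G count turned below it with these settings and with the 500 bp window, and there the share of all genes lay above each interval. Of the regions in the top 50% of WT, 14 were overlapped in 195C>G (73.7%, against 77.3% of promoter regions). Of 14 BCL11A regions in the top 50% of the list, 1 was overlapped in K562 (7.14%, against 30.9% of promoter regions), 1 in 195C>G (7.14%, against 28.9%) and 4 in WT (28.6%, against 52.0%). With a reciprocal overlap of 50%, of 27 there were 2 in K562 (7.41%, against 23.6%), 3 in 195C>G (11.1%, against 20.9%) and 6 in WT (22.2%, against 33.9%). All 6 of these shares over promoter regions lay inside the exact interval. Merging overlapping regions, an alternative chosen after seeing the data, left 26, 9, 18 and 40 loci of the 27, 11, 22 and 51 regions. The best ranks of members named in full numbered 48, leaving out the members added after their values were seen. Of these, 22 had a region left at 500 bp, 25 in the top 50% and 11 with the start covered. At 500 bp none of the 11 in 195C>G was left, HIST1H2AM was lost from K562 too, its WT rank moved from 80 to 18409, and the BCL11A rank of HIST1H3I moved from 657 to 3164. The depth of the libraries is unknown, so an absent region is not shown to be an absence of binding.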

Other observations

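Other genes of histone supply were counted in the same lists, against backgrounds of 24.6% for BCL11A, 33.3% for K562, 29.5% for 195C>G and 45.4% for WT. Of 4 replication-dependent histone genes outside the clusters, HIST3H2A, HIST3H2BB, HIST3H3 and HIST4H4, 3 had a BCL11A region, 0 a K562 region, 1 a 195C>G region and 3 a WT region, which is too few genes to read against them. HIST3H2A and HIST3H2BB shared a BCL11A region of rank 1200 (score 104) and HIST4H4 had one of rank 3974 (score 44.6) at its start. Of 16 replacement histone genes, which are expressed outside S phase, 3 had a BCL11A region (18.8%), 5 a K562 region (31.2%), 6 a 195C>G region (37.5%) and 7 a WT region (43.8%). H2AFY, the macroH2A gene, had the best BCL11A rank among them, 447 (score 196).

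Of 21 genes for transcription of histone genes and processing of their messenger RNA, 6 had a BCL11A region (28.6%), 15 a K562 region (71.4%), 8 a 195C>G region (38.1%) and 18 a WT region (85.7%). NFYA, which encodes a subunit of the factor that binds CCAAT boxes, was at rank 148 in K562, 154 in 195C>G (signal 176) and 145 in WT (signal 175), and at rank 3986 in BCL11A. Of 16 histone chaperone genes, 7 had a BCL11A region (43.8%), 9 a K562 region (56.2%), 9 a 195C>G region (56.2%) and 11 a WT region (68.8%). HIRA, the chaperone of the replacement histone H3.3, was at rank 357 in BCL11A (score 224) and 277 in K562. CHAF1A, a subunit of the chaperone that loads histones behind the replication fork, was at rank 362 in WT (signal 140), and ASF1B at rank 511 (signal 126). Of the chromosome 11 genes of these lists, which are outside the counts, NPAT had a BCL11A region of rank 12460 (score 14.0) and none for ZBTB7A. HINFP had none for BCL11A and was at rank 7515 in K562, 4096 in 195C>G (signal 61.1) and 4006 in WT (signal 60.3).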
